A study of Rattus norvegicus with 78 samples.

Results

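Adult male rats whose mothers had been given the antidepressant paroxetine were compared, in the amygdala at postnatal day 75 (P75), with males of the same age whose mothers had drunk plain water. The comparison rested on 10 of the 78 arrays of the study, picked by their labels for region, age and treatment: 5 exposed and 5 control. All animals, controls included, belonged to the Low Responder line, which was selectively bred from outbred rats for low locomotor response to an unfamiliar place. Exposed dams drank water with paroxetine at a daily dose of 10 mg per kg, starting 1 week ahead of conception and ending when the pups were weaned on P21. RNA of each sample was read on a single-colour NimbleGen array, and values are log2 of the deposited normalized intensity. The other 68 arrays held the amygdala at P7, P14 and P21 (29 arrays) and the hippocampus at all 4 ages. No label ties a pup to its litter, so that p-values reflect the spread between arrays, and 5 arrays a group limit the precision.

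The amygdala is a group of nuclei in the temporal lobe that links sensory events to fear, avoidance and reward. Its output is shaped by GABA neurons, many of which also release peptides such as somatostatin, neuropeptide Y and cholecystokinin, and by serotonin fibres that arrive out of the raphe nuclei. Paroxetine blocks the serotonin transporter, crosses the placenta and passes into milk. Immediate early genes, such as Fos and the Egr family, are switched on within minutes of neuronal activity and are widely read as its trace.

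The exposed arrays did not form 1 tight group. On the first 2 principal components of the 10 arrays, which held 30.0% and 17.5% of the variance, exposed arrays 1 and 2 lay together at 57.0 and 56.5 on the first component, exposed arrays 3 and 5 at 14.2 and 8.0, and exposed array 4 at 33.8. The 5 control arrays lay between -44.0 and -24.0. Pairs of exposed arrays correlated at 0.947 to 0.982 over all features, pairs of control arrays at 0.958 to 0.966, and exposed with control arrays at 0.934 to 0.957. The random-sequence control probe, which matches no rat gene, gave an intensity of 46.1 ± 1.6 on exposed and 50.8 ± 0.4 on control arrays (SD, n = 5 each), with no overlap (exact two-sided permutation p = 0.00794, the smallest that 252 splits allow). Results are therefore also given for exposed arrays 3 to 5 alone and for exposed arrays 1, 2 and 4 alone, each against all 5 controls. What set these arrays apart was not tested.

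**Figure D1:**
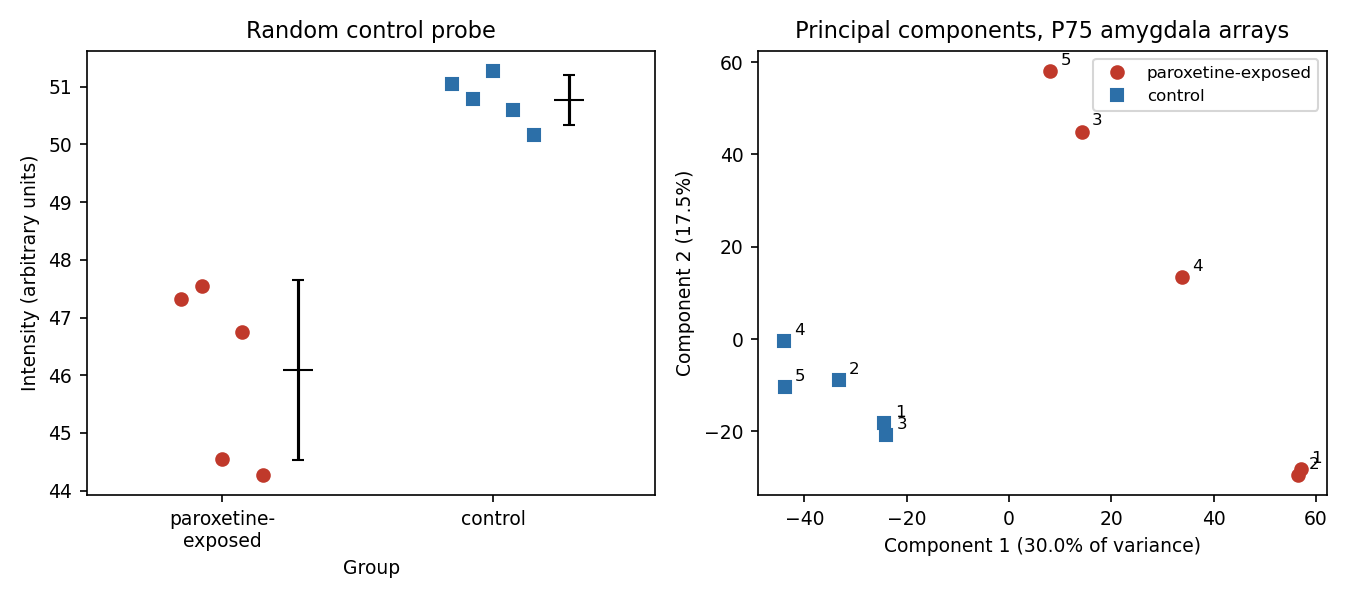
Left, intensity of the random control probe on each of the 5 exposed and 5 control arrays, with the group mean and SD beside the points. Right, the same 10 arrays on the first 2 principal components of log2 values, numbered by replicate. Exposed arrays 1 and 2 lie at the lower right, apart from exposed arrays 3 and 5 at the top, while the 5 controls stay together on the left.

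The tissue label was checked in the P75 controls against the hippocampal arrays of the same age. Of 14 markers of amygdala and piriform neurons 10 were higher in amygdala on every array, led by Lypd1, a modulator of acetylcholine receptors, with a difference of 3.83 log2 units, and 1 was higher in hippocampus. Of 9 markers of hippocampal principal neurons 3 were higher in amygdala (Wfs1, Calb1 and Man1a1) and 2 in hippocampus, so this list did not separate the regions. Of 19 markers of striatal projection neurons 11 were also higher in amygdala and none in hippocampus. Whether the samples held striatal tissue was not tested. Levels set across the regions carry a limit, because P75 array pairs of 1 region shared a median of 298.5 identical values and pairs across regions 84, so the regions may have been normalized separately.

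Of 26419 features 2471 (9.35%) were higher in exposed than in control rats and 3106 (11.8%) were lower, at an adjusted p under 0.05 (limma, Benjamini-Hochberg over all features). These 5577 calls became 3284 with the spread taken from the P75 arrays alone and 3208 by the methods' t-test after Benjamini-Hochberg. Among the 9629 genes with a symbol (16670 features had none and were left out), each represented by its brightest feature, 955 rose (9.92%) and 1161 fell (12.1%), together 22.0%, and the median log2 difference over all of them was -0.03. Called features had a median difference of 0.667 log2 units in size, and 383 rose and 330 fell by more than 1 unit. The authors' deposited table for the same comparison listed 80 features, 26 up and 54 down with folds between 1.5 and 3.59, and all 80 passed here in the same direction. It rests on the same arrays, so the shared direction was fixed in advance and is no independent support. Exposed arrays 3 to 5 alone gave 863 rises (8.96%) and 843 falls (8.75%) among the genes, and exposed arrays 1, 2 and 4 alone 882 rises (9.16%) and 1298 falls (13.5%). After adjustment for the random control probe 1318 features rose and 3136 fell, with a median over all features of -0.11 against -0.03 without it.

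Neuropeptide genes had the highest share of falls of the lists examined: of 20 measured, 14 fell (70.0%, against 12.1% of all genes) and none rose. The list's median difference was -0.63, against -0.03 over all genes. Cholecystokinin, gastrin-releasing peptide, neuropeptide Y, somatostatin, dynorphin and CART were each lower on every exposed array than on any control array. On 11 of the 20 genes the groups did not overlap in that direction, which held for 7.89% of all genes. The summed level of the list was 41343 to 50868 on exposed arrays, against 75553 to 84843 on control arrays. Linear intensities are summed, so Penk, the brightest member, weighs most in it. With exposed arrays 3 to 5 alone 11 of the 20 fell, and with exposed arrays 1, 2 and 4 alone 13.

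The gene of cholecystokinin, Cck, which marks a class of basket cells and is also made by pyramidal neurons, gave 11.94, 12.14, 12.31, 12.07 and 12.26 on the 5 exposed arrays, against 13.42, 13.32, 13.35, 13.36 and 13.39 on the 5 controls. All exposed arrays lay more than 1 unit below the lowest control, and the difference was -1.22 ± 0.09 (SE), 2.33-fold lower in exposed rats, with an adjusted p of 4.23e-12. Grp, for gastrin-releasing peptide, a product of excitatory cells of the lateral amygdala, stood at 9.19, 9.47, 9.19, 9.39 and 9.72 on the exposed arrays and at 10.69, 11.03, 10.83, 11.26 and 10.97 on the control arrays. The difference of -1.56 ± 0.12 was the largest of the list. Npy, for neuropeptide Y, a peptide with anti-anxiety action in the rodent amygdala, measured 11.49, 11.88, 11.19, 11.44 and 11.50 in exposed rats, against 12.70, 12.64, 12.70, 12.79 and 12.88 in controls. The difference was -1.24 ± 0.11, and exposed array 2 was nearest to the controls while exposed array 3 was farthest.

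Sst, for somatostatin, which marks dendrite-targeting GABA cells, read 12.14, 11.98, 12.04, 11.88 and 12.05 on exposed arrays 1 to 5, against 13.06, 12.87, 12.93, 13.03 and 13.03 on control arrays 1 to 5. The groups were nearly flat within themselves and differed by -0.97 ± 0.10, with an adjusted p of 4.72e-09. Pdyn, the precursor of the opioid dynorphins, gave 9.03, 8.57, 9.43, 9.35 and 9.09 on the 5 exposed arrays, against 10.50, 10.58, 10.42, 10.76 and 10.99 on the 5 controls. Exposed array 2 was the lowest, no array crossed over, and the difference was -1.55 ± 0.16. Cartpt, the precursor of CART peptides, stood at 8.22, 8.41, 8.68, 8.32 and 8.52 on the exposed arrays and at 9.77, 9.64, 9.72, 10.01 and 10.11 on the control arrays. Again the groups stood apart, by -1.42 ± 0.19.

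Among the opioid genes Pnoc, for nociceptin, fell by 1.13 on the log2 scale and Penk, for the enkephalins, by 0.72. Scg2 and Vgf, granins of dense-core vesicles, fell by 0.53 and 0.36, Vgf no longer past the test with exposed arrays 3 to 5 alone (adjusted p 0.223). Gal, for galanin, fell by 0.78, but with exposed arrays 1, 2 and 4 alone the adjusted p was 0.0866. Tac3, for neurokinin B, fell by 0.88 with 1 exposed array at 9.26, inside the control range of 9.22 to 9.55. The last 2 called members, Adcyap1, for the peptide PACAP, and Nxph1, for the neurexin ligand neurexophilin, differed by -0.31 ± 0.10 and -0.33 ± 0.12, and neither passed with exposed arrays 3 to 5 alone (adjusted p 0.111 and 0.451). The 6 genes that did not pass were Cort, Hcrt, Nmu, Pmch, Tac1 and Trh, with differences of -0.15 to 0.38. Hcrt and Pmch are made mainly in the hypothalamus.

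**Figure D2:**
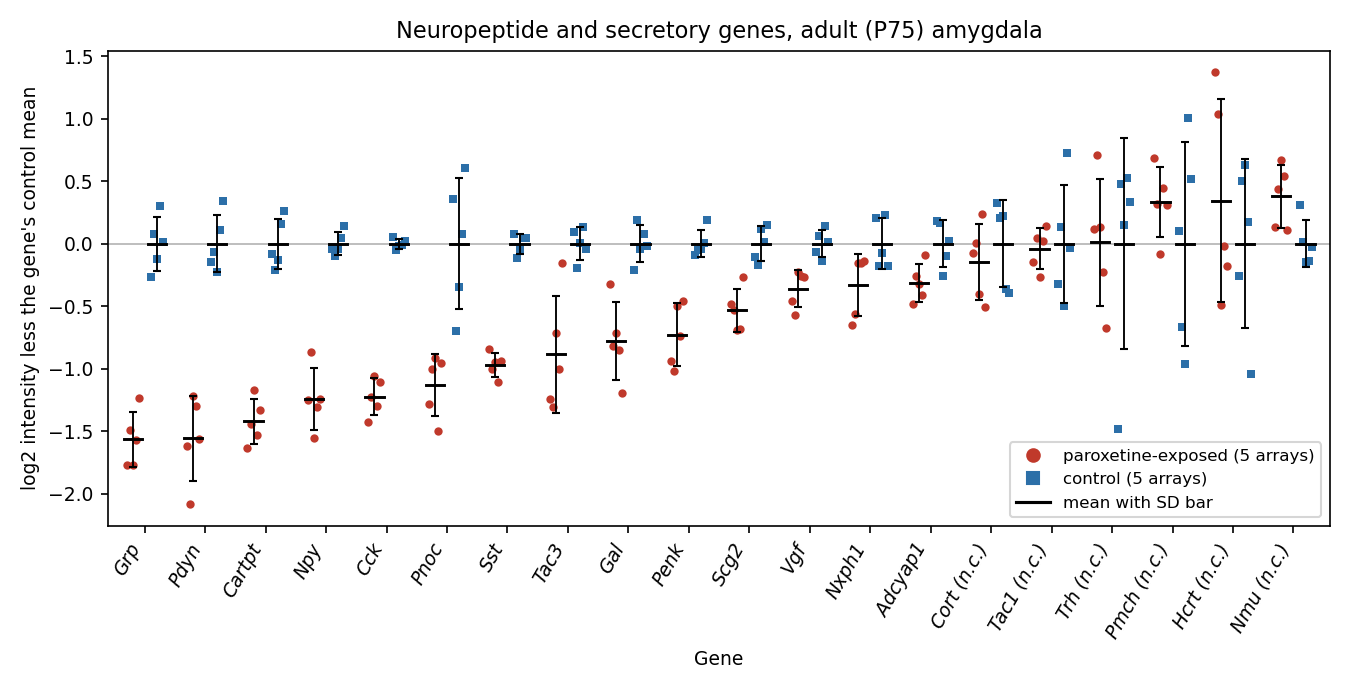
Each of the 20 measured neuropeptide and secretory genes on the 5 exposed (red circles, left of each pair) and 5 control arrays (blue squares), as log2 intensity less the gene's own control mean, with group mean and SD; n.c. marks genes that did not pass the test. On the left, Grp, Pdyn, Cartpt, Npy, Cck and Pnoc sit more than 1 unit below their control means on average, and the 6 genes on the right scatter around 0.

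Markers of the cells that make these peptides did not all move with them. Of 14 genes of GABA synthesis and interneurons 5 fell (35.7%, against 12.1% of all genes) and 3 rose (21.4%, against 9.92%). Pvalb, the calcium-binding protein of fast-spiking interneurons, fell by 1.28, Calb2, for calretinin, by 0.82, and Dlx5, a transcription factor of developing GABA neurons, by 1.00. The 2 other falls were Npy and Sst. Gad1, which makes GABA out of glutamate, measured 11.16, 11.05, 11.63, 11.32 and 11.48 in exposed rats, against 10.53, 10.68, 10.75, 10.88 and 10.84 in controls. All exposed arrays were above all controls, with a difference of 0.59 ± 0.12. Calb1, for calbindin, rose by 0.59. In bulk tissue fewer cells of a type and less RNA per cell cannot be told apart.

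Striatal markers moved with the peptides: of 19 measured, 8 fell (42.1%, against 12.1% of all genes), 2 rose (10.5%, near the 9.92% of all genes) and 9 did not pass, with a median of -0.26, and no rise was left with exposed arrays 1, 2 and 4 alone. Drd2, the D2 dopamine receptor of indirect-pathway neurons, read 9.18, 8.73, 9.53, 8.98 and 9.57 on exposed arrays 1 to 5, against 10.47, 10.40, 10.33, 10.40 and 10.56 on control arrays 1 to 5. No array crossed over, and Drd2 differed by -1.23 ± 0.13. Ppp1r1b, for the dopamine-regulated phosphatase inhibitor DARPP-32, fell by 1.16, and Rgs9, a brake on dopamine receptor signalling, by 0.98. Other members of the list did not pass, Adora2a and Pde10a among them at -0.11 and 0.00, and Drd1, the D1 receptor, was higher by 0.40 ± 0.15 with an adjusted p of 0.0496 that was over 0.05 when any 1 control array, or exposed array 3, 4 or 5, was left out (0.0562 to 0.135). The summed level of the striatal list was 31730 to 43446 on exposed arrays, against 52940 to 62044 on control arrays, with no overlap. Linear intensities are summed, so Penk, the brightest member at a control mean of 14.94, weighs most in it. Of the amygdala and piriform markers 5 of 14 fell (35.7%), Lypd1 first among them at -1.0 ± 0.11, and 2 rose (14.3%, and none with exposed arrays 1, 2 and 4 alone), the vesicular glutamate transporters Slc17a6 at 0.99 ± 0.28 and Slc17a7 at 0.36 ± 0.10. Penk stands on the striatal and Cartpt on the amygdala list as well as among the peptides, and the part of these cell types in the peptide result was not tested.

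Immediate early genes were next in their share of falls: 12 of 23 measured fell (52.2%, against 12.1% of all genes) and none rose, with a median of -0.38. Egr2, Egr1, Fos, Ier2, Egr4 and Nr4a1 were lower on every exposed array than on any control array. The same list gave 10 falls with exposed arrays 3 to 5 alone and 12 with exposed arrays 1, 2 and 4 alone. Its summed level was 24612 to 29067 on exposed arrays, against 39956 to 44644 on control arrays. Egr1, the brightest member, weighs most in that sum of linear intensities.

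Egr2, a zinc-finger factor that in the forebrain follows neuronal activity, gave 7.33, 7.37, 7.66, 7.33 and 7.83 on the 5 exposed arrays, against 8.98, 9.25, 9.27, 8.99 and 9.20 on the 5 controls. The lowest control stood more than 1 unit above the highest exposed array, and the difference was -1.64 ± 0.13, 3.11-fold lower in exposed rats (adjusted p 4.59e-11). Egr1, its relative with high basal expression in forebrain, stood at 13.43, 13.34, 13.68, 13.44 and 13.45 on the exposed arrays and at 14.33, 14.38, 14.40, 14.51 and 14.37 on the control arrays. The exposed arrays were almost level except for array 3, and the difference was -0.93 ± 0.10. Fos, a subunit of the AP-1 factor, measured 6.14, 5.76, 6.15, 7.17 and 6.61 in exposed rats, against 7.90, 7.51, 7.91, 7.86 and 8.24 in controls. Exposed array 4 was the nearest to the controls, and the difference was -1.52 ± 0.24.

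Ier2, a rapidly induced nuclear protein, read 7.11, 6.99, 7.24, 7.07 and 7.48 on exposed arrays 1 to 5, against 8.42, 7.99, 8.47, 8.44 and 8.66 on control arrays 1 to 5. The groups did not overlap, and the difference was -1.22 ± 0.23. Npas4, which is induced by calcium entry and little else, gave 5.57, 5.34, 5.49, 5.01 and 5.70 on the 5 exposed arrays, against 6.92, 6.61, 6.22, 5.87 and 5.82 on the 5 controls. The control arrays themselves spread over more than 1 unit, and controls 4 and 5 came close to the exposed range. The difference was -0.87 ± 0.19. Npas4, Fos, Ier2, Egr4 and Dusp1 were too dim to pass the filter on dim features. On the log2 scale the random control probe differed by -0.14, and the dimmest 10% of features had a median difference of -0.17. The part of background signal in the falls of these dim genes was not tested. Nr4a1, an orphan nuclear receptor, fell by 0.82, Egr3 by 0.64, Egr4 by 1.01 and Dusp1, a phosphatase that ends MAP kinase signals, by 0.93. Smaller falls were measured for the AP-1 subunits Fosl2 (-0.48), Jund (-0.38) and Junb (-0.38), of which Jund and Junb did not pass with exposed arrays 3 to 5 alone (adjusted p 0.15 and 0.0536).

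The other 11 members of this list did not pass. Of all 23, 21 had a difference below 0, and the 2 above 0 were Arc and Homer1. Arc, a synaptic protein whose mRNA moves to active dendrites, stood at 8.42, 8.88, 8.49, 8.53 and 9.13 on the exposed arrays and at 8.63, 8.52, 8.56, 8.54 and 8.68 on the control arrays. The groups overlapped throughout, with a difference of 0.10 ± 0.21 (adjusted p 0.791). Bdnf, the growth factor, differed by -0.08 ± 0.18, Homer1 by 0.24 ± 0.13 and Nr4a2 by 0.00, and none of these passed.

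**Figure D3:**
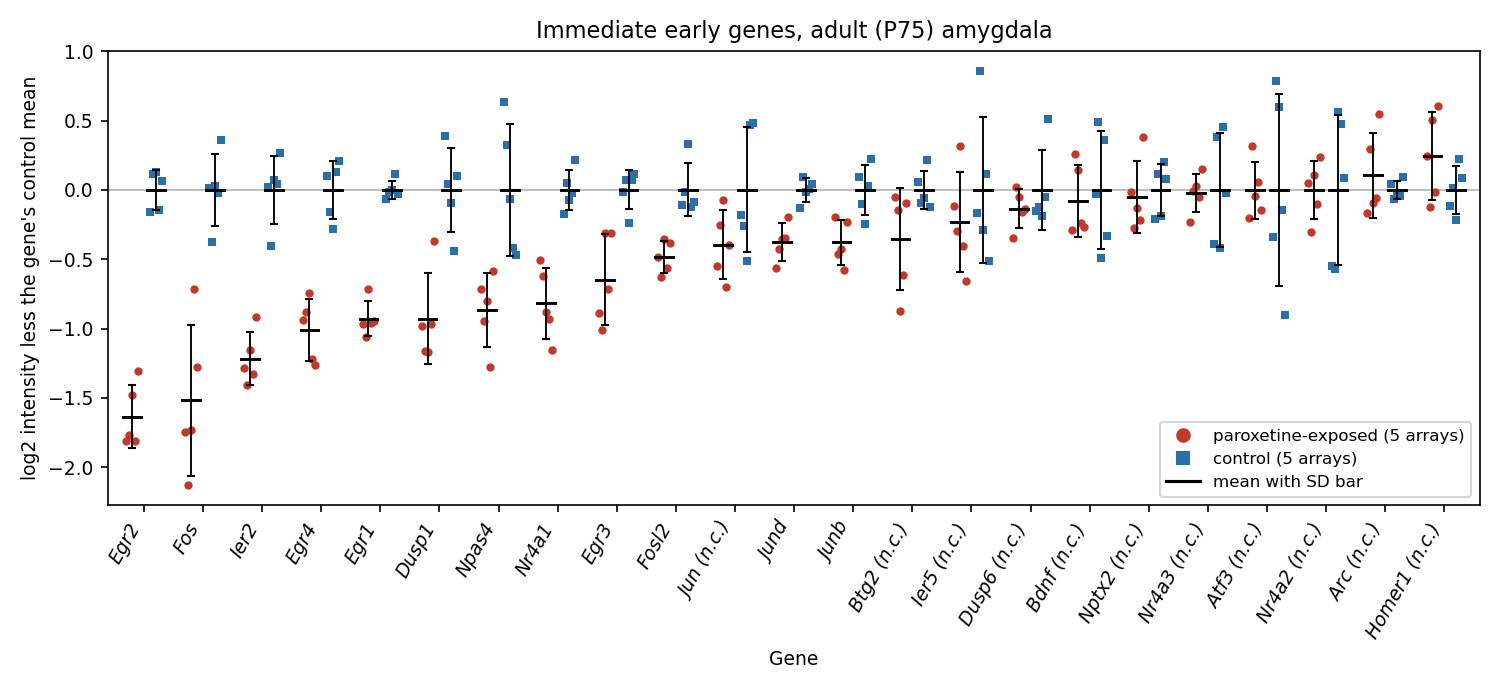
Each of the 23 measured immediate early genes on the 5 exposed (red circles, left of each pair) and 5 control arrays (blue squares), as log2 intensity less the gene's own control mean, with group mean and SD; n.c. marks genes that did not pass the test. Egr2, Fos and Ier2 lie at the far left with no overlap, and Arc, Bdnf and Homer1 scatter around 0 on the right.

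Promoters of falling genes of both lists are shown because a textbook route links activity to their transcription: the factor CREB binds the cyclic AMP response element, and serum response factor binds the CArG box. Sequences are the 250 bases before the RefSeq transcription start (assembly GRCr8), written 5′ to 3′ on the gene's strand, with the matched letters in capitals. Egr2 lies on chr20:21054442-21054691 (minus strand) and has a CArG box 83 to 74 bases before the start. Ier2 lies on chr19:40399123-40399372 (plus strand) with the response element TGACGTCA at 66 to 59, Cartpt on chr2:32991236-32991485 (minus strand) with it at 142 to 135, and Vgf on chr12:25277021-25277270 (minus strand) with it at 90 to 83.
Egr2: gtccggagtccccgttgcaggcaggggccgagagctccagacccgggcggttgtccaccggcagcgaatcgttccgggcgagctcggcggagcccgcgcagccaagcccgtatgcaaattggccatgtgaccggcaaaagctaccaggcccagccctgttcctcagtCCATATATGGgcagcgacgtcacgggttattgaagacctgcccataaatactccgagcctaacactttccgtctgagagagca
Ier2: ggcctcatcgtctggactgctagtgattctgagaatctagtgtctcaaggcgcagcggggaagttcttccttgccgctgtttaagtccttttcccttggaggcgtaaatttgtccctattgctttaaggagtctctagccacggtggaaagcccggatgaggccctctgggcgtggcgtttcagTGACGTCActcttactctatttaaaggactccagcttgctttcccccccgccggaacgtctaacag
Cartpt: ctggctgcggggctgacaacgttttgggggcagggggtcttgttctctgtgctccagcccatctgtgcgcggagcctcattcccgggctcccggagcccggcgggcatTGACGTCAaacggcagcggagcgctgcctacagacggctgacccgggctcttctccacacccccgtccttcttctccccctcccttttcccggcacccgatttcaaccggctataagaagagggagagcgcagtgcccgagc
Vgf: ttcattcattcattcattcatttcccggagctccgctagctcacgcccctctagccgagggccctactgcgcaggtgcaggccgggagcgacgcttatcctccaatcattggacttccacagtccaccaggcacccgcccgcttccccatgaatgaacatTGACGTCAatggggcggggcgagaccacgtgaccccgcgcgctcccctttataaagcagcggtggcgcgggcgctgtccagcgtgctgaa
The full palindrome TGACGTCA, searched on both strands, was found in 1.7% of all 27457 RefSeq promoters of this length, in 3 of 15 neuropeptide promoters (Cartpt, Vgf and Scg2) and in 4 of 17 immediate early promoters (Jund, Ier2, Dusp1 and Btg2). The CArG box was found in 1.5% of all promoters and in 2 of the 17, Egr1 and Egr2. These matches were not limited to lists that fell. Among glycolysis and TCA cycle genes, which rose more often than they fell, 3 of 31 promoters held TGACGTCA and 1 of 31 the CArG box. Clock (14), cholesterol synthesis (17) and haemoglobin and red cell promoters (9) held neither. A match describes these letters only, and Btg2, which holds the element, did not pass the test (difference -0.35).

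Genes of the serotonin system, the target of the drug, were called about as often as all genes (21.1% against 22.0%, either direction). Of 19 measured 4 fell (21.1%, against 12.1% of all genes) and none rose. The median was -0.01, close to that of all genes, while with exposed arrays 3 to 5 alone 2 fell and 3 rose. Only 8 of the 19 had a mean above the median of all features, so that many were dim. The serotonin transporter gene Slc6a4, whose mRNA is made in raphe cell bodies, measured 6.33, 5.83, 6.82, 6.29 and 6.66 in exposed rats, against 6.26, 6.81, 5.84, 6.91 and 5.41 in controls. The groups overlapped fully, with a difference of 0.14 ± 0.27 (adjusted p 0.765). Tph2, the enzyme of serotonin synthesis in neurons, differed by -0.26 ± 0.31, Slc18a2, the vesicular monoamine transporter, by -0.04 ± 0.25, and Ddc, the decarboxylase, by 0.25 ± 0.30, and none passed.

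Htr6, a cyclic AMP-raising receptor of striatal and cortical neurons, read 8.65, 8.50, 7.71, 8.12 and 8.06 on exposed arrays 1 to 5, against 9.18, 8.88, 9.21, 9.24 and 9.11 on control arrays 1 to 5. All exposed arrays were below all controls, array 3 most, and the difference was -0.92 ± 0.21 (adjusted p 0.00129). Htr1b, a release-inhibiting receptor on axon endings, gave 8.86, 8.68, 8.63, 8.39 and 8.58 on the 5 exposed arrays, against 9.03, 8.84, 9.35, 9.39 and 9.76 on the 5 controls. It differed by -0.65 ± 0.16, with only exposed array 1 inside the control range. Htr1d, its relative, differed by -0.60 ± 0.18 and Fev, a factor of serotonin neurons, by -0.87 ± 0.28. These 2 were less secure, with adjusted p of 0.175 and 0.192 for exposed arrays 3 to 5 alone, and Fev read 8.36 on exposed array 4 against 6.71 to 7.08 on the other exposed arrays.

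The receptors most often tied to mood did not pass: Htr1a differed by 0.01 ± 0.23, Htr2a by 0.08 ± 0.15 and Htr7 by -0.08 ± 0.34. Htr4 differed by 0.62 ± 0.38, Htr2b by 0.41 ± 0.31, Htr1f by -0.30 ± 0.30, Htr5a by -0.12 ± 0.16 and Htr3b by -0.01 ± 0.21. Htr2c, an excitatory receptor abundant in amygdala and choroid plexus, stood at 10.31, 10.13, 11.07, 11.07 and 11.64 on the exposed arrays and at 10.50, 10.47, 9.89, 10.39 and 10.33 on the control arrays. Only exposed arrays 3, 4 and 5 were above the controls, so that it differed by 0.53 ± 0.25 over all arrays (adjusted p 0.14) and by 0.94 in exposed arrays 3 to 5 alone (adjusted p 0.0106). Maob, an enzyme of amine breakdown, and Htr3a, an ion channel receptor, split likewise, at 0.81 and 0.54 in those arrays (adjusted p 0.0131 and 0.0469), against 0.41 ± 0.23 and 0.23 ± 0.19 over all. In hippocampus, where the groups have their own arrays, Htr2c differed by 2.19 (adjusted p 1.12e-08).

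Of 18 dopamine and noradrenaline genes Drd2 fell and Drd1 rose, as given above (5.56% each way, below the shares of all genes). Among 20 stress and corticosteroid genes 3 fell, a share of 15.0% that is near the 12.1% of all genes, and none rose (3 rose with exposed arrays 1, 2 and 4 alone). The falls were Crhbp, Ucn and Per1, a clock gene that glucocorticoids induce. Crhbp, which binds corticotropin-releasing hormone (CRH) and keeps it off its receptors, measured 9.18, 9.07, 8.82, 9.10 and 8.25 in exposed rats, against 9.61, 9.66, 9.73, 10.04 and 9.92 in controls. Every exposed array was below every control, and the difference was -0.91 ± 0.20 (adjusted p 8.01e-04). Ucn, a relative of CRH, differed by -0.73 ± 0.26 and by -0.29 (adjusted p 0.477) with exposed arrays 1, 2 and 4 alone. Crh itself read 10.19, 9.83, 7.95, 9.15 and 8.57 on exposed arrays 1 to 5, against 9.60, 9.63, 9.93, 9.40 and 9.17 on control arrays 1 to 5. Exposed array 1 was above all controls and arrays 3, 4 and 5 below them, and the difference was -0.41 ± 0.33 over all arrays (adjusted p 0.428) and -0.99 with exposed arrays 3 to 5 alone (adjusted p 0.0421). The glucocorticoid receptor gene Nr3c1 differed by 0.35 ± 0.24 and did not pass either.

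Genes of transmission and excitability gave calls in both directions, to be read against the 9.92% of all genes that rose and the 12.1% that fell. Postsynaptic scaffold and kinase genes fell most often, 13 of 28 (46.4%) against 4 that rose (14.3%), with a median of -0.25, or 7 falls with the spread taken from the P75 arrays alone. Nrgn, for the calmodulin store neurogranin, gave 14.43, 14.39, 14.17, 14.17 and 14.54 on the 5 exposed arrays, against 15.12, 15.10, 15.26, 15.40 and 15.23 on the 5 controls. The difference was -0.88 ± 0.10 without overlap. Nlgn1 and Nlgn3, postsynaptic adhesion proteins, fell by 0.65 and 0.60, and the scaffolds Shank3 and Shank1 by 0.70 and 0.56. Dlg2, for the scaffold PSD-93, stood at 11.64, 11.53, 12.02, 11.61 and 11.98 on the exposed arrays and at 10.70, 10.88, 10.78, 10.88 and 10.83 on the control arrays. It rose by 0.94 ± 0.10. Of 31 release genes 7 rose (22.6%) and 6 fell (19.4%), but 3 rose and 2 fell with the spread of the P75 arrays alone. Sv2a, a protein of vesicle priming, rose by 0.64, and Vamp2 and Snap25, which form the fusion complex, fell by 0.49 and 0.43.

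Ionotropic glutamate receptors rose in 5 of 16 (31.2%) and fell in none, but in only 1 of 16 with exposed arrays 1, 2 and 4 alone. Gria3, an AMPA receptor subunit, differed by 0.57 ± 0.15 and Grin1, the shared NMDA receptor subunit, by 0.42 ± 0.11, the second with an adjusted p of 0.0824 in those 3 arrays. Of 9 metabotropic receptor genes 2 fell (22.2%) and 1 rose (11.1%), Grm5 by 0.54, with a median of -0.19. GABA receptor and chloride genes gave 3 rises and 4 falls of 18 (16.7% and 22.2%, against 9.92% and 12.1% of all genes). Gabra3, a GABA-A receptor subunit, rose by 0.66, and Gabbr1, of the GABA-B receptor, and Slc12a5, the chloride exporter KCC2, rose by 0.54 and 0.47. Slc12a5 no longer passed with exposed arrays 1, 2 and 4 alone (adjusted p 0.0716).

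Voltage-gated sodium and calcium channel genes gave 6 rises and 4 falls of 23 (26.1% and 17.4%, against 9.92% and 12.1% of all genes). Cacna1a, the P/Q calcium channel of nerve endings, measured 10.71, 10.38, 10.68, 10.81 and 10.82 in exposed rats, against 11.74, 11.77, 11.68, 11.82 and 11.86 in controls. The difference was -1.09 ± 0.10 with no overlap. Cacng2, for the AMPA receptor partner stargazin, fell by 0.69, and the sodium channel genes Scn8a and Scn2b rose by 0.73 and 0.86. Of 33 potassium and HCN channel genes 5 rose (15.2%) and 7 fell (21.2%). Hcn4, a pacemaker channel, read 10.76, 10.94, 10.05, 10.31 and 10.30 on exposed arrays 1 to 5, against 11.56, 11.54, 11.60, 11.60 and 11.62 on control arrays 1 to 5. The controls were level within 0.1 unit, and the difference was -1.12 ± 0.12. Kcnd2, an A-type channel, fell by 0.78 and Kcnk2, the leak channel TREK-1, rose by 0.89. In G protein signalling 6 of 31 rose (19.4%) and 3 fell (9.68%), with Prkar1a, a regulatory subunit of protein kinase A, at 0.99 ± 0.11 and Gnb1, a G protein beta subunit, at 0.90 ± 0.11.

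Among genes of energy metabolism, those of glycolysis and the TCA cycle rose far more often than they fell. Of 34 glycolysis and TCA cycle genes 16 rose (47.1%, against 9.92% of all genes) and 1 fell, with a median of 0.25. Idh3a, a subunit of the NAD-linked isocitrate dehydrogenase, gave 10.92, 10.84, 11.23, 10.99 and 11.22 on the 5 exposed arrays, against 9.97, 9.82, 9.91, 10.00 and 10.12 on the 5 controls. The rise was 1.08 ± 0.10 without overlap (adjusted p 4.10e-10). Eno2, the neuronal enolase, stood at 13.85, 14.13, 14.19, 13.97 and 14.28 on the exposed arrays and at 12.69, 12.76, 12.74, 13.06 and 13.03 on the control arrays. All exposed arrays were above all controls, and it rose by 1.23 ± 0.13. Pgk1, Cs, Eno1 and Pdha1, which serve glycolysis, the entry of acetyl groups and pyruvate oxidation, rose by 0.81, 0.66, 0.76 and 0.73. The single fall was Mdh2, a malate dehydrogenase, at -0.52. After adjustment for the random control probe 7 of the 34 rose, and with the spread taken from the P75 arrays alone 10. Of 17 ion pump genes 8 rose (47.1%) and 2 fell (4 rises after that adjustment), with Atp6v1h and Atp6v0a1, subunits of the proton pump of vesicles and lysosomes, at 0.97 ± 0.14 and 0.70 ± 0.11.

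Oxidative phosphorylation genes split instead, with 9 rises (23.1%) and 13 falls (33.3%) of 39, against 9.92% and 12.1% of all genes, and a median of -0.01. The counts were 2 rises and 10 falls after that adjustment and 5 rises and 6 falls with the spread of the P75 arrays alone. Among the falls Uqcrh and Uqcrq of complex III fell by 1.06 and 0.65 and Atp5mc2, of the membrane ring of ATP synthase, by 0.98. Among the rises stood Atp5f1b, the catalytic subunit of ATP synthase, at 0.70 ± 0.12 and Sdha of complex II at 0.57 ± 0.10. Cytosolic ribosomal protein genes gave 17 falls (26.2%) and 8 rises (12.3%, near the 9.92% of all genes) of 65, with a median of -0.02, and 1 rise after adjustment for the random control probe. Rps15, of the small subunit, measured 10.09, 10.22, 9.89, 9.88 and 10.03 in exposed rats, against 11.34, 11.12, 11.32, 11.23 and 11.26 in controls. Every exposed array was below every control, with a difference of -1.23 ± 0.12. Fau, Rpl41 and Rpl11 fell by 1.03, 0.94 and 0.99. Ribosomal protein genes have many processed copies, so a probe may read more than 1 source. Proteasome genes rose in 6 of 28 (21.4%) and fell in none, with Psmd1, of the regulatory particle, at 0.73 ± 0.11. The median of that list was -0.03, 17 of the 28 differences were below 0, and with exposed arrays 1, 2 and 4 alone 4 rose and 3 fell. Among 25 chaperones 7 rose (28%) and 1 fell, and the 2 main chaperones of the endoplasmic reticulum went apart: Hsp90b1 by 0.97 ± 0.09 and Hspa5 by -0.49 ± 0.09.

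Lipid synthesis genes rose more often than they fell. Of 23 genes of cholesterol synthesis 10 rose (43.5%, against 9.92% of all genes) and 1 fell (4.35%, against 12.1%), with a median of 0.32. With exposed arrays 3 to 5 alone 11 rose and with exposed arrays 1, 2 and 4 alone 8, but only 3 after adjustment for the random control probe. Acat2, which joins 2 acetyl groups at the entry of the pathway, read 8.81, 9.02, 9.26, 9.08 and 9.31 on exposed arrays 1 to 5, against 7.87, 8.52, 7.62, 7.36 and 7.90 on control arrays 1 to 5. Control array 2 was the highest control and still below every exposed array, and the difference was 1.24 ± 0.15. Hmgcs1, which makes HMG-CoA, gave 11.42, 11.18, 11.70, 11.16 and 11.65 on the 5 exposed arrays, against 10.63, 10.55, 10.44, 10.56 and 10.70 on the 5 controls. The difference was 0.85 ± 0.11 (adjusted p 7.83e-07). Insig1, which holds back the regulators of the pathway, rose by 0.62. The single fall was Pmvk, a kinase of the mevalonate route, at -0.59 ± 0.20, and Srebf2, the factor that drives the pathway, did not pass (-0.24). Fatty acid synthesis and desaturation genes rose in 5 of 15 (33.3%) and fell in none, with Acly, which supplies acetyl-CoA, at 0.88 ± 0.11, Scd2, a desaturase, at 0.54 ± 0.11 and Elovl6, an elongase, at 0.68 ± 0.16. That count was 3 after the same adjustment.

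Astrocyte markers rose in 11 of 20 (55.0%, against 9.92% of all genes) and fell in 1 (5.0%, against 12.1%), with a median of 0.39. Slc1a3, the glutamate transporter GLAST, stood at 11.85, 11.69, 12.18, 11.84 and 12.26 on the exposed arrays and at 11.20, 11.22, 11.21, 11.29 and 11.17 on the control arrays. Exposed arrays 3 and 5 were highest and exposed array 2 nearest to the level control arrays, with a difference of 0.75 ± 0.11. Gfap, the filament protein that increases in reactive astrocytes, measured 10.68, 10.50, 10.96, 10.24 and 10.66 in exposed rats, against 9.89, 9.94, 9.63, 9.95 and 9.81 in controls. The groups did not overlap, and the difference was 0.76 ± 0.14. Kcnj10, the potassium channel Kir4.1, rose by 0.92, Gja1, for connexin 43, by 0.67, Glul, which makes glutamine, by 0.56, and Aqp4, the water channel of end-feet, by 0.50. The fall was Ntsr2, a neurotensin receptor, at -0.50, and Aldh1l1 and Aldoc, equally used as markers, did not pass (0.02 and 0.15). The summed level of the list was 201629 to 239670 on exposed arrays, against 167236 to 187219 on control arrays. The rises numbered 7 after adjustment for the random control probe and 6 with the spread taken from the P75 arrays alone.

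Other glial and vessel lists moved less or in the other direction. Oligodendrocyte precursor markers fell in 4 of 8 (against 12.1% of all genes) and rose in none, with Ptprz1 at -0.53 ± 0.13, Bcan at -0.43 ± 0.10, Gpr17 at -0.36 ± 0.10 and Bmp4 at -0.93 ± 0.24. Of 20 myelin genes 3 rose (15.0%, against 9.92% of all genes) and 1 fell: Tspan2, a tetraspanin, at 1.01 ± 0.13, Ugt8, which makes galactocerebroside, at 0.71 ± 0.18, Qdpr at 0.59 and the small heat shock protein Cryab at -1.16 ± 0.18, whereas Mbp, for a main myelin protein, did not pass (-0.04). Of 15 microglial markers 2 rose (13.3%) and 1 fell (6.67%), near the shares of all genes, with C1qb, of complement, at -0.98 ± 0.21 and Csf1r, the growth receptor, at 0.44 ± 0.14. Vessel markers gave 3 rises of 18 (16.7%), or 5 with exposed arrays 3 to 5 and 1 with exposed arrays 1, 2 and 4 alone, among them Bsg at 0.57 ± 0.10 and Cldn5, of the tight junction, at 0.60 ± 0.15, and 1 fall, Itm2a, at -0.43 ± 0.11. Of 20 complement genes 4 fell (against 12.1% of all genes) and none rose.

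Of 11 haemoglobin and red cell genes 5 fell (45.5%, against 12.1% of all genes), all of them globins, and none rose, with a median of -0.48. Hba-a3, an alpha globin gene, read 7.47, 7.70, 7.96, 7.51 and 7.88 on exposed arrays 1 to 5, against 9.60, 9.47, 9.29, 9.50 and 9.70 on control arrays 1 to 5. The difference was -1.81 ± 0.16, the largest fall of a gene named here, with an adjusted p of 2.63e-10. Hbb-b1, a beta globin gene, gave 9.16, 9.19, 8.73, 9.07 and 9.15 on the 5 exposed arrays, against 10.17, 10.14, 10.46, 10.31 and 10.46 on the 5 controls. It differed by -1.25 ± 0.12, and Hba-a2, Hba-a1 and Hbb fell by 1.21, 1.16 and 0.72. Near-identical globin copies may share probes, so these 5 are not 5 independent readings. The other 6 did not pass, among them Alas2, the enzyme of haem synthesis in red cell precursors, at 0.15, and the anion exchanger Slc4a1 at 0.13. The summed level was 28088 to 47394 on exposed arrays, against 75587 to 90168 on control arrays.

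Clock genes fell in 7 of 16 (43.8%, against 12.1% of all genes) and rose in 2 (12.5%, near the 9.92% of all genes), with a median of -0.36. Dbp, an output factor of the clock, stood at 11.15, 11.07, 11.28, 11.13 and 11.32 on the exposed arrays and at 12.16, 12.08, 11.83, 12.27 and 12.20 on the control arrays. The difference was -0.92 ± 0.11 without overlap (adjusted p 1.91e-07). Nr1d1, for the repressor REV-ERB alpha, fell by 0.70, Bhlhe40, a repressor that neuronal activity also induces, by 0.87, Per2 by 0.80, Per1 by 0.64, Cry2 by 0.42 and Csnk1e, a kinase of the period proteins, by 0.64. Bmal1, the activator that peaks opposite to the period genes, measured 10.21, 10.22, 10.28, 10.36 and 9.92 in exposed rats, against 9.73, 9.65, 9.70, 9.59 and 9.62 in controls. Exposed arrays were all above the controls, and it rose by 0.54 ± 0.15, and Csnk1d, the sister kinase, rose by 0.64 ± 0.10. Bhlhe40 was 1 of 3 promoters among 14 of this list that held the E-box CACGTG, found in 5.79% of all RefSeq promoters. It was also found in 4 of 15 neuropeptide and 1 of 17 immediate early promoters. The time of day at which tissue was taken is not given in the sources used here, and its part in the clock and immediate early results was not tested.

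**Figure D4:**
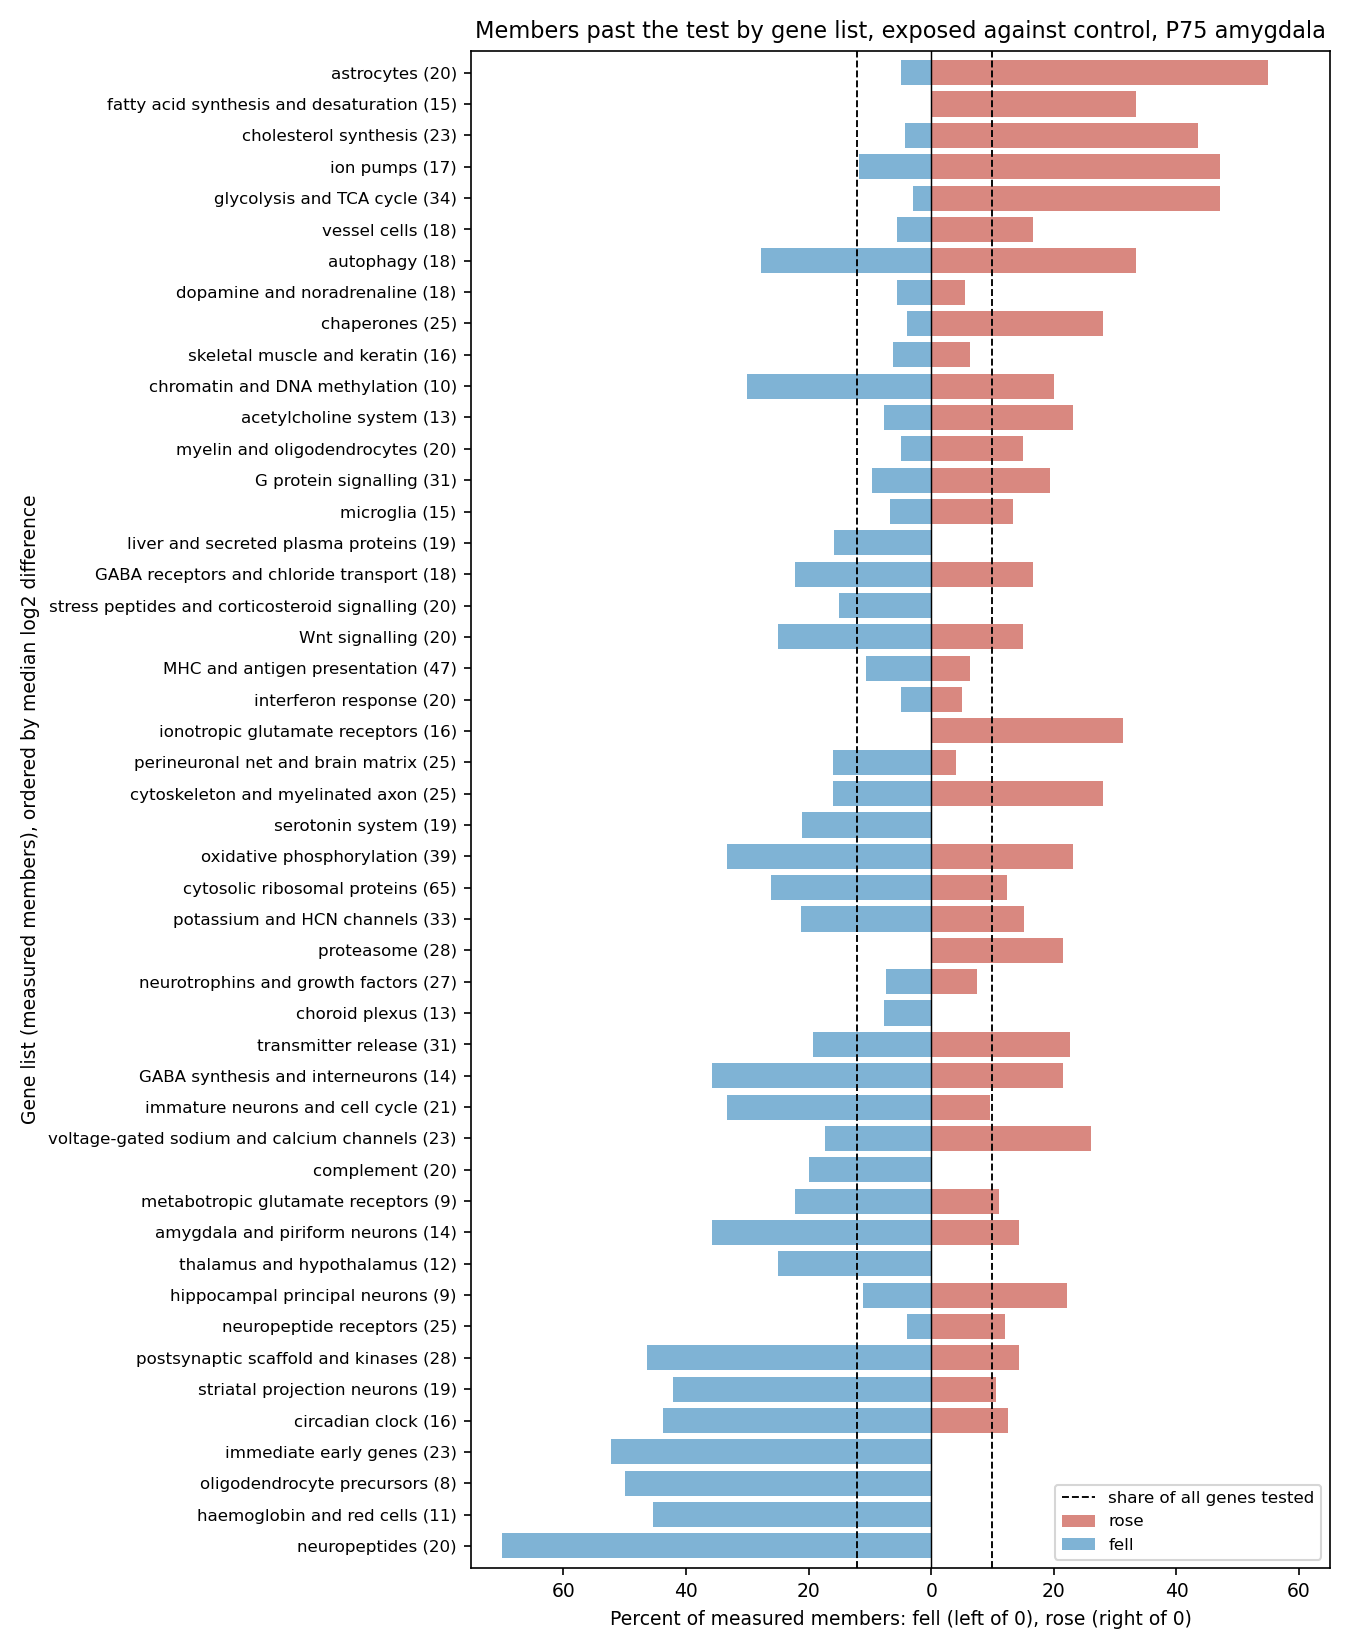
Percent of the measured members of each gene list that rose (right of 0) or fell (left of 0) in exposed against control P75 amygdala, with dashed lines at the shares over all 9629 genes (9.92% rose, 12.1% fell). Lists are ordered by their median difference, the lowest at the bottom, where 70.0% of neuropeptide genes fell, and astrocyte markers, with 55.0% risen, stand at the top.

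Many of the largest rises lay outside the lists described so far. Ptprs, for a receptor phosphatase that sits on axons and binds matrix proteoglycans, read 12.46, 12.78, 13.37, 12.84 and 13.25 on exposed arrays 1 to 5, against 11.06, 10.96, 10.95, 11.34 and 11.17 on control arrays 1 to 5. Exposed arrays 3 and 5 were highest, all 5 were far above the controls, and the rise of 1.84 ± 0.14 (3.59-fold) was the largest of the genes that met the level and overlap rule. The next rises were Impact, an inhibitor of the stress kinase GCN2, at 1.59, Vmp1, needed to form autophagosomes, at 1.51, Fam98a at 1.51 and Ccn2, a secreted matrix protein, at 1.39. Itm2c, a membrane protein of neurons, rose by 1.38, Azin1, which frees polyamine synthesis from its inhibitor, by 1.36, Ifi27, an interferon-induced gene, by 1.34, Fzd3, a Wnt receptor, by 1.30, and Zfp347 by 1.29. Of 20 interferon response genes Ifi27 was the 1 that rose and Stat2, a signal transducer, the 1 that fell (-0.59). Tmx1 and Trip12 rose by 1.23 and 1.22. Slc22a18, an imprinted transporter, gave 10.15, 9.92, 8.78, 9.03 and 8.79 on the 5 exposed arrays, against 8.64, 8.16, 7.98, 7.49 and 8.27 on the 5 controls. Exposed arrays 1 and 2 were well above the other exposed arrays, and the rise of 1.23 was 0.76 with exposed arrays 3 to 5 alone (adjusted p 0.0704).

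The largest falls beyond those already named were Trim54, a protein of muscle and microtubules, by 1.56, Mospd3, by 1.5, and Phlda1, by 1.44. Phlda1, a cytoplasmic protein induced by growth signals, stood at 11.16, 10.82, 11.03, 10.94 and 11.17 on the exposed arrays and at 12.32, 12.50, 12.48, 12.52 and 12.47 on the control arrays. Both groups were narrow, and its adjusted p of 4.44e-13 was the smallest of the genes named here. Bmyc and Atp6v0e2, a relative of Myc and a proton pump subunit, each fell by 1.33. Chfr, a mitotic checkpoint ligase, fell by 1.31, Lrrc8c, of the volume-regulated anion channel, by 1.25, and Clcn2, a chloride channel, by 1.24. Igf2, a growth factor of choroid plexus and meninges in adult brain, fell by 1.12, while the other 12 of 13 choroid plexus genes did not pass.

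Earlier ages of the same region were set beside P75, with no array shared between ages. Of the 2116 genes called at P75, 1209 were also called at P14 (57.1% of the P75 calls and 36.2% of the P14 calls, at which age 13.8% of genes rose and 20.9% fell), 1174 of them in the same direction. At P21, where 9.62% rose and 15.8% fell, the overlap was 1159 genes (54.8% and 47.3%), 1143 in the same direction. At P7, where 6.32% rose and 1.74% fell, it was 237 genes (11.2% and 30.5%), 151 in the same direction. Of the 20 neuropeptide genes none fell at P7, 11 fell and 3 rose at P14, 9 fell and 1 rose at P21, and 14 fell at P75. Cck differed by -0.23 at P7, -0.96 at P14, -0.98 at P21 and -1.22 at P75. Npy differed by -0.05 at P7, -0.67 at P14, -0.63 at P21 and -1.24 at P75. Immediate early genes fell in 0, 8, 9 and 12 of 23 at the 4 ages, 3 having risen at P7. Egr2 differed by 0.57 at P7, -0.26 at P14, -0.05 at P21 and -1.64 at P75. Astrocyte markers rose in 0, 3, 2 and 11 of 20 and fell in 1, 3, 3 and 1.

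A test of the P75 difference against the mean of the 3 earlier differences called 1417 of 26419 features (5.36%), and among genes 238 higher (2.47%) and 234 lower (2.43%). The features split into 639 higher and 778 lower, but into 233 and 827 after adjustment for the random control probe. The count was 935 without exposed array 3, 940 without exposed array 5, 847 with a replicate block, 3139 with exposed arrays 3 to 5 alone (1600 higher, 1539 lower) and 675 with exposed arrays 1, 2 and 4 alone (179 higher, 496 lower). Lower at P75 than before were 7 of 20 neuropeptide genes and 6 of 23 immediate early genes, and higher were 7 of 20 astrocyte markers. Egr2 differed from its earlier mean by -1.73 ± 0.16, Hba-a3 by -1.72 ± 0.18 and Hbb-b1 by -1.51 ± 0.14. Ttr, the thyroxine carrier that marks choroid plexus, differed by -1.76 ± 0.38, although its own P75 difference did not pass: it was 1.47 at P7, -1.86 at P14, 4.08 at P21 and -0.53 at P75. Asgr2 and Prm1 differed by -1.65 ± 0.33 and -1.54 ± 0.37, and both were higher on exposed arrays 1 and 2 than on 3 and 5. Among the rises Ptprs exceeded its earlier mean by 1.41 ± 0.16, Lpar1, a lysophospholipid receptor, by 1.38 ± 0.34, Acat2 by 1.31 ± 0.17, Zfp347 by 1.15 ± 0.28, Itm2c by 1.04 ± 0.19 and Fam98a by 1.01 ± 0.28. With exposed arrays 1, 2 and 4 alone Prm1, Lpar1, Zfp347 and Fam98a no longer passed (adjusted p 0.191, 0.0995, 0.0668 and 0.0807), and with exposed arrays 3 to 5 alone Fam98a did not (0.0552).

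In the hippocampus of P75 rats 28.6% of genes rose and 15.0% fell in exposed rats, and 1266 of the 2116 genes called in amygdala were also called (59.8% of the amygdala calls and 30.1% of the hippocampal calls), 596 in the same and 670 in the opposite direction. Of the opposite ones 531 fell in amygdala and rose in hippocampus, and 139 did the reverse. A test of the difference between the regions called 9757 of 26419 features (36.9%), and 1142 genes were higher (11.9%) and 2497 lower (25.9%) in amygdala than in hippocampus in their response. For the neuropeptide list 13 of 20 were lower in that sense, but brighter features leaned that way in general. The median regional difference was -0.32 over the brighter 50% of features, against -0.08 over all. Of the 20 genes, 15 lay above the median level in amygdala. In hippocampus 11 of these 20 rose and 3 fell. Rises there were wide, with 59 of 65 cytosolic ribosomal protein and 36 of 39 oxidative phosphorylation genes higher and none lower. The part of this lean in the peptide result was not tested. Cck differed by -1.22 in amygdala and 0.42 in hippocampus, with -1.64 ± 0.12 between the regions. Sst differed by -0.97 in amygdala and 0.61 in hippocampus, with -1.58 ± 0.14 between the regions. Penk differed by -0.72 in amygdala and 1.42 in hippocampus, with -2.14 ± 0.17 between the regions.

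Immediate early genes were lower in amygdala than in hippocampus in 14 of 23 by the same test, in which brighter features leaned that way in general. Egr1 differed by 0.50 in hippocampus, and the regional difference was -1.43 ± 0.13. Fos, by contrast, was negative in both, at -0.33 in hippocampus without passing there, and its regional difference was -1.19 ± 0.30. Several of the leading rises had near values in both regions: Ptprs differed by 1.84 in both, Eno2 by 1.47 and Idh3a by 1.02 in hippocampus, and their regional differences of 0.00 ± 0.18, -0.24 ± 0.16 and 0.06 ± 0.18 did not pass. The largest regional differences below 0 were Nr2f2, a factor of caudal forebrain neurons, at -2.63 ± 0.21, Spdye4 at -2.33 ± 0.48, Atp2b4, a calcium pump, at -2.25 ± 0.17, Trim54 at -2.23 ± 0.32, Map1lc3a, a protein of autophagosomes, at -2.21 ± 0.14 and Penk, given above. For Nr2f2 and Atp2b4 most of it lay in hippocampus, where they differed by 2.17 and 2.71, and Atp2b4 rose in amygdala as well, by 0.46.

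The largest regional differences above 0 belonged to genes that were highest on exposed arrays 1 and 2. They were Mettl21cl1 at 2.62 ± 0.53, Tpbpa at 2.52 ± 0.43, Slc22a18 at 2.49 ± 0.35, Unc13d at 2.31 ± 0.36 and the olfactory receptor genes Or5d41b and Or9s23 at 2.26 ± 0.32 and 2.09 ± 0.39, of which Or9s23 did not pass in amygdala itself (0.64). Unc13d, a priming factor of secretion in blood cells, measured 10.38, 10.28, 8.45, 9.26 and 8.03 in exposed rats, against 8.56, 8.56, 8.38, 8.32 and 8.54 in controls. Only exposed arrays 1, 2 and 4 were above the controls, and with exposed arrays 3 to 5 alone its amygdala difference was 0.11 (adjusted p 0.817). Receptor genes of the nose behaved likewise as a list: 79 of 1254 rose and 33 fell (6.30% and 2.63%, under the shares of all genes), with 38 rises for exposed arrays 3 to 5 and 130 for exposed arrays 1, 2 and 4. These genes are close to silent in brain, and only 67 of the 1254 had a mean above the median of all features.

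**Figure D5:**
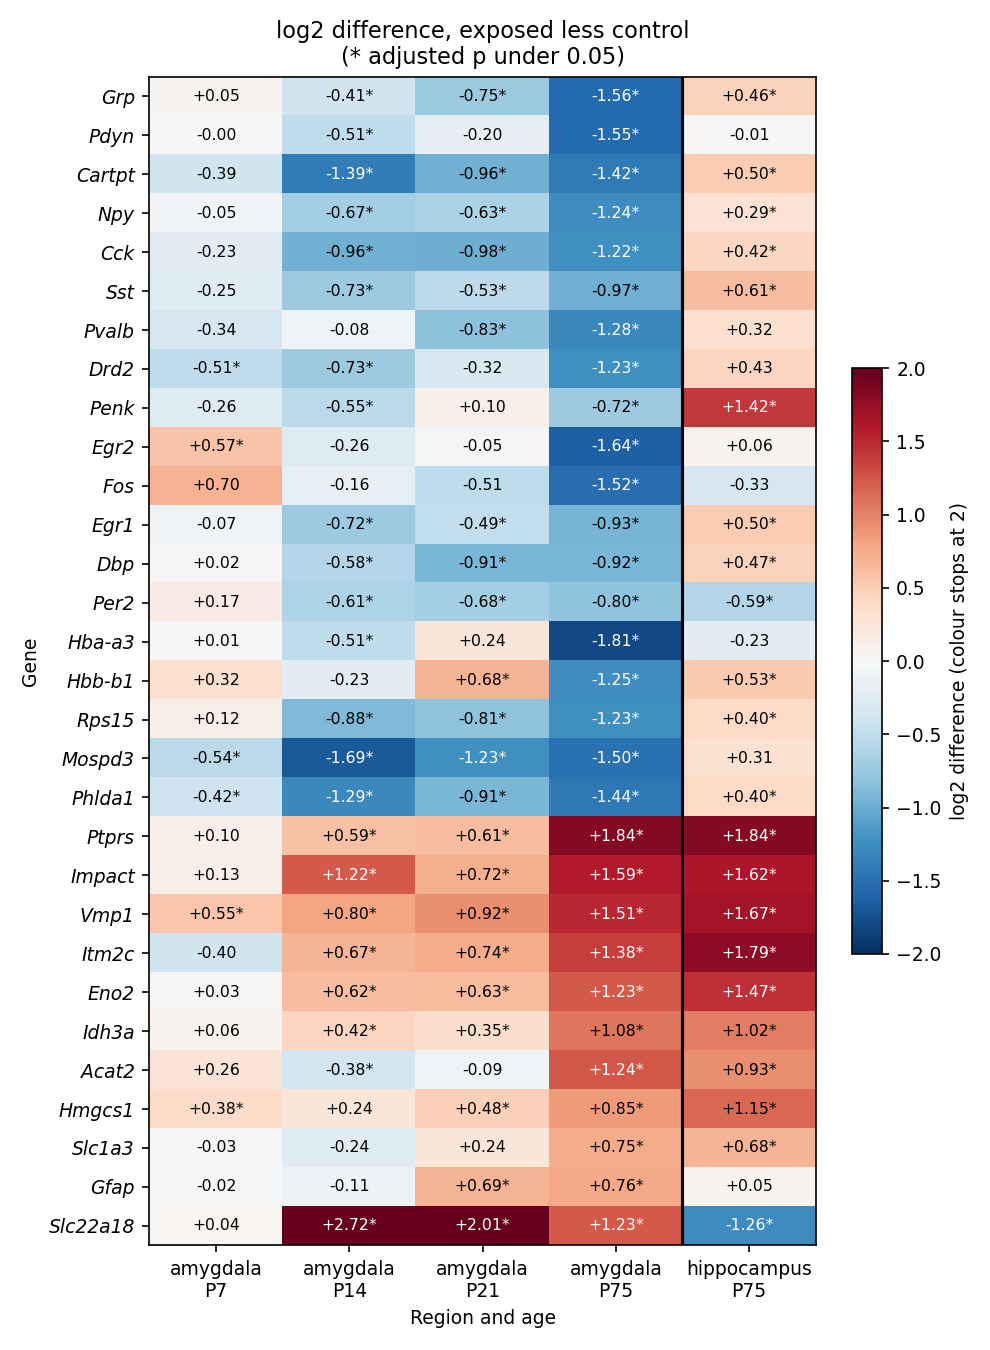
Log2 difference of exposed less control rats for 30 genes named in the text (rows) in amygdala at P7, P14, P21 and P75 and in hippocampus at P75 (columns), with an asterisk where the adjusted p was under 0.05. Cck, Npy, Sst, Egr1 and Dbp are blue in amygdala after P7 and pale red in hippocampus, while Ptprs, Impact, Vmp1, Itm2c and Eno2 are red in both regions at P75.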

How the data were processed

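The deposited value table gives 1 normalized linear intensity per feature and array (26420 rows, of which 1 is a random-sequence control probe). How the authors normalized it is not given in the sources used here. Column names of the authors' comparison tables mention RMA. In those tables the authors' p-values come from an unpaired t-test with Bonferroni correction, per the file headers, which also limit the list to p up to 0.05 and fold changes of 1.5 or more. Their log2 folds equalled the differences of log2 intensities computed here within 2.5e-06, which settled scale and direction. Another 39 per-array columns were not used.

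The intensities were put on a log2 scale, without a pseudocount. In R 4.3.3, limma 3.58.1 was fitted with group as its only term on all 39 amygdala arrays (all 78 for the regional contrast), with eBayes and Benjamini-Hochberg adjustment over 26419 features at 0.05. Log2 differences are exposed minus control, with ± giving limma's SE. Symbols came from RefSeq (GRCr8) through accessions for 9747 features and out of the authors' table for 2. A gene is its feature with the highest mean. The fitting code was tested on simulated data.

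The text names the 15 largest rises and falls with a mean above the median and no overlap, up to 6 members of a list by p with further members as examples of a role, the 6 largest each way of both difference contrasts, and all serotonin genes. Some genes that this rule takes are not reported here. The members and lists were chosen with earlier results of these data known. Alternatives were quantile normalization, a filter on dim features, trended robust moderation, array weights, the P75 arrays alone, a replicate block, the random probe as covariate, plain t-tests and leaving out each array. The 2 subsets of exposed arrays were added after seeing the data.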

Additional observations from a re-analysis of the deposited data

Results flagged for a closer look

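Of 438 sets of 5 arrays examined for the genes named, 14 held an array far from the other 4 of its group, where chance gives about 1 in 20. Exposed array 5 read 7.82 for Dusp1, with 7.22 next to it, exposed array 4 read 8.36 for Fev, with 7.08 next, and exposed array 3 read 8.73 for Hbb-b1, with 9.07 next. Control array 3 stood apart in 6 genes: it was high for Fosl2 (11.17, next 10.82) and Scn2b (9.50, next 9.23) and low for Htr2c (9.89, next 10.33), Cacng2 (11.61, next 11.87), Uqcrq (11.44, next 11.62) and Bmyc (9.40, next 9.69). Control array 1 was low for Phlda1 (12.32, next 12.47) and for Trh (5.13, next 6.76) and high for Prm1 (10.95, next 10.65). Control array 4 was low for Drd1 (8.02, next 8.26) and for Tpbpa (6.09, next 7.39). Without control array 3 Fosl2 differed by -0.40 with an adjusted p of 0.0115, and Drd1 without control array 4 differed by 0.34 with an adjusted p of 0.128.

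The P75 difference departed from the mean of the 3 earlier ages in 1417 features and from the hippocampal difference in 9757, each by limma's test of the difference itself. Below their earlier mean were Ttr (-1.76), Egr2 (-1.73), Hba-a3 (-1.72), Asgr2 (-1.65), Prm1 (-1.54) and Hbb-b1 (-1.51). Above it were Ptprs (1.41), Lpar1 (1.38), Acat2 (1.31), Zfp347 (1.15), Itm2c (1.04) and Fam98a (1.01). Below their hippocampal difference were Nr2f2 (-2.63), Spdye4 (-2.33), Atp2b4 (-2.25), Trim54 (-2.23), Map1lc3a (-2.21) and Penk (-2.14). Above it were Mettl21cl1 (2.62), Tpbpa (2.52), Slc22a18 (2.49), Unc13d (2.31), Or5d41b (2.26) and Or9s23 (2.09).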

How the results depend on the processing

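Single genes were not followed under the random probe as covariate or the plain t-tests. Under the other alternatives no gene named in the text changed direction past the test. Over 204 genes and their P75 differences, 3522 of 3647 recomputed values kept their side of the threshold, 120 no longer passed and 5 newly passed. Of the 3522, 65, from 22 genes, had the other sign, with neither that value nor the reported one past the test. The 12 differences from the earlier ages kept direction and side in 195 of 204 values, and the 12 regional ones in all 191. The 5577 features called at P75 became 3284 (1399 up, 1885 down) with the P75 arrays alone, which leaves fewer arrays to estimate the spread, 3208 (1263 up, 1945 down) by the methods' t-test after Benjamini-Hochberg and 82 (16 up, 66 down) at the authors' threshold in words, Bonferroni with a fold of 1.5. That correction ran over 26419 features. The ratio of the authors' corrected to raw p gave about 6652 features in their test. The 82 and their 80 therefore rest on unlike sets and cut-offs. Leaving out 1 array gave 4759 to 5624. The 1417 features that departed from the earlier ages were 935 to 1930 on leaving out 1 array (935 without exposed array 3, 940 without exposed array 5), 3139 with exposed arrays 3 to 5 alone, 675 with exposed arrays 1, 2 and 4 alone and 847 with a replicate block. The cause was not tested. The 9757 regional calls ranged over 8671 to 10392 on leaving out 1 array. Same-numbered exposed and control arrays share only a number (their deviations correlated at -0.09 to 0.08): with the replicate block 5025 features were called at P75, and 7 of the 204 genes lost their call. The random probe differed by -4.69, or -5.05 to -4.23 on leaving out 1 array. The number of arrays limits what could be called: the smallest called difference was 0.241 log2 units in size, and genes that did not pass may differ by more, as Htr4 did with a difference of 0.62 ± 0.38. A limit of signal applies to dim genes: 179 of the 204 genes, and 7 of the 12 immediate early genes that fell, passed the filter on dim features.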

Other observations

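Several lists not described above gave calls in both directions, to be read against 9.92% of all genes that rose and 12.1% that fell. Of 21 genes of immature neurons and the cell cycle 7 fell (33.3%, but 3 genes with exposed arrays 3 to 5 alone) and 2 rose (9.52%), with a median of -0.11. Tubb2b, a beta tubulin of growing neurons, rose by 0.94 ± 0.11, while Ccnd2, a cyclin of dividing progenitors, differed by -0.91 ± 0.13 and Stmn1, which takes microtubules apart, by -0.61 ± 0.11. Of 25 genes of the cytoskeleton and the myelinated axon 7 rose (28%) and 4 fell (16.0%). Pfn1, the widely expressed profilin that binds actin, differed by -1.14 ± 0.09, and Cntn1, a cell adhesion protein of axons, by 0.85 ± 0.11. Autophagy genes were divided as well, 6 rises (33.3%) and 5 falls (27.8%) of 18, with Becn1, which starts autophagosomes, at 0.63 ± 0.10 and Atg9a, a membrane protein of the same route, at -0.70 ± 0.09.

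Of 20 Wnt genes 3 rose (15.0%) and 5 fell: Ctnnb1, for beta-catenin, differed by 0.49 ± 0.11 and Lef1, its DNA-binding partner, by -1.21 ± 0.16. Neurotrophins and growth factors gave 2 rises and 2 falls of 27 (7.41% each way, below the shares of all genes), with the neurotrophin 3 receptor Ntrk3 at -0.46 ± 0.11 and the receptor Igf1r at 0.54 ± 0.14, which did not pass with exposed arrays 1, 2 and 4 alone (adjusted p 0.0593). Among 25 neuropeptide receptors 3 rose (12%, near the share of all genes) and 1 fell, with the nociceptin receptor Oprl1 at 0.65 ± 0.14. Among 13 acetylcholine genes 3 rose (23.1%, and none with exposed arrays 1, 2 and 4 alone) and 1 fell, the muscarinic receptor Chrm1 at -0.51 ± 0.13, not past the test with exposed arrays 3 to 5 alone (adjusted p 0.0665). Genes of the perineuronal net and brain matrix gave 1 rise and 4 falls of 25 (4.0% and 16.0%), led by Timp3, an inhibitor of matrix proteases, at -0.96 ± 0.13.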
